A study of Saccharomyces cerevisiae with 11 samples.

Results

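The 49 genes described here encode proteins that assemble the small ribosomal subunit of *Saccharomyces cerevisiae*: small nucleolar RNP (snoRNP) proteins, U3 processome proteins (UTPs and their partners), RNA helicases and late 40S assembly factors. They were listed by systematic name, with earlier results of these data known, and they are 49 of the 7126 genes in the table of counts. All 49 passed the filter on low counts, with at least 181 estimated counts in every culture. RNA was sequenced from 11 W303 cultures after growth at 25°C to mid-log phase in 2% raffinose and 4 h in 2% galactose. The cultures of a group were biological repeats marked a, b or c, called clone letters here. All strains carried an integrated, GFP-tagged Htt fragment with a nuclear localization signal under the *GAL* promoter, with a glutamine tract of normal length (Htt-25Q-NLS) or an expanded one (Htt-103Q-NLS), where the numeral counts the glutamines. Each strain also carried either an empty low-copy *CEN* vector ([V]) or the same kind of plasmid with *SLX5* ([*SLX5*]), a subunit of the SUMO-targeted ubiquitin ligase Slx5/Slx8. The groups were Htt-25Q [V] (n = 2), Htt-25Q [*SLX5*] (n = 3), Htt-103Q [V] (n = 3) and Htt-103Q [*SLX5*] (n = 3), and a further Htt-25Q [V] culture that the authors set aside for its rRNA content was not used here. The Htt lengths sat in different integrant strains, so an effect of Htt length and a strain difference cannot be told apart.

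Ribosomes are built in the nucleolus, where RNA polymerase I makes a long precursor that holds the 18S rRNA of the small subunit. The precursor is folded around the U3 snoRNA and a very large set of proteins, the small-subunit (SSU) processome. Other snoRNPs modify its nucleotides, and helicases and nucleases free the 18S rRNA. In yeast the genes for these proteins belong to the ribosome biogenesis regulon, whose transcription follows nutrient supply and growth rate, and many carry the sequence elements RRPE and PAC upstream of the start codon. RRPE is known as a binding site of Stb3, and PAC as a binding site of the repressors Dot6 and Tod6.

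These elements were searched for in the 250 bases upstream of each start codon in the RefSeq R64 genome, on both strands, as AAAAATTT (RRPE) and GATGAG (PAC). Of the 49 genes, 41 held the RRPE letters, 45 held the PAC letters and 39 held both, while *UTP22* and *EMG1* held neither. Among all 6007 protein-coding genes, 13.4% held RRPE, 17.0% held PAC and 4.98% held both. To show the arrangement, 150 bases (from base -200 to base -51 before the start codon) follow for the 4 genes with the largest rise in Htt-103Q [V] cells, and, added after the values were seen, for *UTP11* and *NOP10*, which had the smallest fold changes. Capitals mark the RRPE and PAC letters on either strand, and each sequence is given 5′ to 3′ in the direction of its gene.
DHR2: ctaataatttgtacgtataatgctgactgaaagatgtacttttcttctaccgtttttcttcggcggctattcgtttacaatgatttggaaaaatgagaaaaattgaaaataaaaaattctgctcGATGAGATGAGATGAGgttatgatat
KRE33: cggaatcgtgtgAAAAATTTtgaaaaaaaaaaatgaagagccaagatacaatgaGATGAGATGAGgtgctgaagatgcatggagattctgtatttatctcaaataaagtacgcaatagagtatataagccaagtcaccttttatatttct
TSR1: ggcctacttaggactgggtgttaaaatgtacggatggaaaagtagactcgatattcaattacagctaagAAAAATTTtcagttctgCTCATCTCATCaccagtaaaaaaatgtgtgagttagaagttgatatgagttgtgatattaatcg
RRP5: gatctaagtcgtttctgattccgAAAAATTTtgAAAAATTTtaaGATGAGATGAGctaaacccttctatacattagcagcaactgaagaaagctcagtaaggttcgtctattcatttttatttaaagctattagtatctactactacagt
UTP11: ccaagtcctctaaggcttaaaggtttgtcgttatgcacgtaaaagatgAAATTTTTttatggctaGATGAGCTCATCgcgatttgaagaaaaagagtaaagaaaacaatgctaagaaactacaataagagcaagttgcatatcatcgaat
NOP10: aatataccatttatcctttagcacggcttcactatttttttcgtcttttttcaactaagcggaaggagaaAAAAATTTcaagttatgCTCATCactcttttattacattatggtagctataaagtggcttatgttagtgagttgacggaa
These stretches lie at chrXI:288645-288794, plus strand (*DHR2*), chrXIV:375121-375270, plus strand (*KRE33*), chrIV:341419-341568, plus strand (*TSR1*), chrXIII:731174-731323, minus strand (*RRP5*), chrXI:256523-256672, minus strand (*UTP11*) and chrVIII:241464-241613, plus strand (*NOP10*), in R64 coordinates. All 6 are intergenic, with 0 bases inside a RefSeq gene, and transcription start sites were not mapped here. *KRE33*, *TSR1* and *RRP5* each showed overlapping PAC letters downstream of an RRPE, close by in *TSR1* and *RRP5* and farther off in *KRE33* (beginning at bases -188 and -146), and *DHR2* showed overlapping PAC letters with no RRPE in the window. *UTP11* and *NOP10* held both elements as well.

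Across the 39 genes with both elements, the nearest RRPE and PAC began a median of 14 bases apart, and in 36 of them (92.3%) they began within 30 bases of each other. The RRPE lay on the upstream side in 34 of the 39. Of the 299 protein-coding genes with both elements anywhere in the genome, 66.2% had them within 30 bases and 62.5% had the RRPE upstream. Within the 49 genes the PAC letters began at a median of -116 bases (range -229 to -55) and the RRPE letters at -137 bases (-245 to -34). Genes that rose with Htt-103Q-NLS and genes that did not pass the test held the elements at like shares: 29 of 37 and 10 of 12 had both. A match is a run of letters and not a measured binding site.

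**Figure D1:**
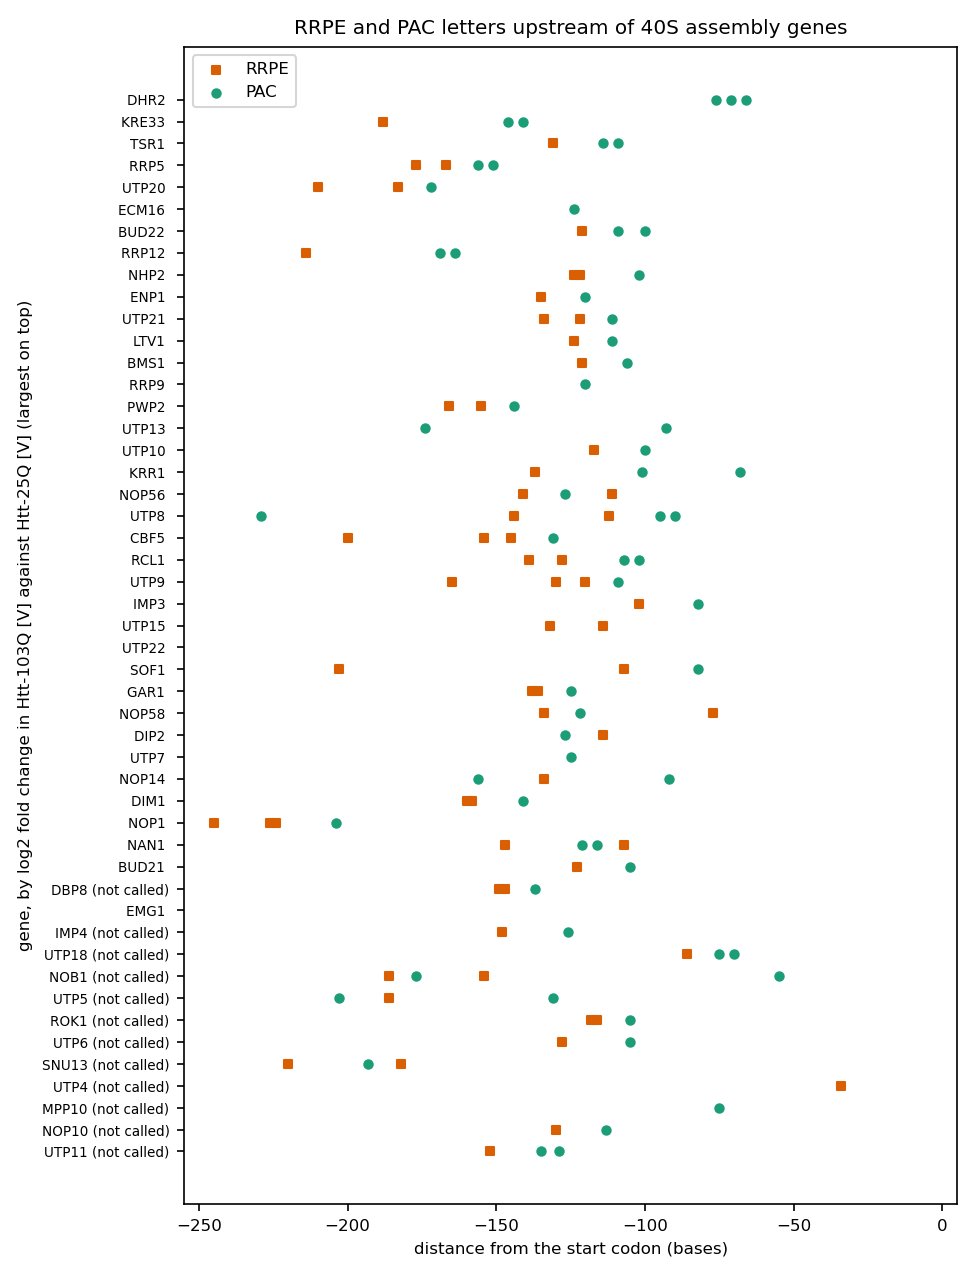
Positions of RRPE (squares) and PAC letters (circles) upstream of the 49 genes, with distance from the start codon in bases on the x axis and genes ordered by log2 fold change in Htt-103Q [V] against Htt-25Q [V]. PAC sits close downstream of RRPE in most rows from top to bottom, including rows of genes that were not called.

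Depth did not limit these genes, since libraries held from 19942070 to 29440801 estimated counts and the 49 genes took between 0.429% and 0.963% of them. *SLX5* itself was counted at 1216, 1173 and 1147 CPM (counts per 1e6 after TMM scaling) in the Htt-25Q [*SLX5*] cultures against 94.4 and 99.6 CPM in Htt-25Q [V], and at 494, 752 and 663 CPM in Htt-103Q [*SLX5*] against 53.9, 50.1 and 65.2 CPM in Htt-103Q [V]. Genes of rRNA took 0.254% to 2.40% of the counts, and the highest shares were those of the cultures with letter a, with 1.02% in Htt-103Q [V] a and 1.61% to 2.40% in the other 3. The estimated counts of *NOP56*, *NOP58* and *RRP9* were not whole numbers in any library, which means that RSEM divided some of their reads between genes, so their values are less certain. The lengths in the files equalled the RefSeq coding lengths for 49 of 49 genes, and 0 of them overlapped another RefSeq gene.

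Levels between genes were compared per length, as TPM (transcripts relative to the total, from the authors' RSEM run). The 4 box H/ACA genes and *NOP1* had the highest levels of the 49 in Htt-25Q [V] cells, and the helicase gene *DHR2* the lowest. In Htt-25Q [V] cells (n = 2) the H/ACA genes *NOP10*, *NHP2* and *GAR1* had mean levels of 948 ± 37.5, 420.0 ± 38.6 and 393 ± 27.7 TPM (SD), and *NOP1*, the gene of fibrillarin, had 283 ± 16.5 TPM. *NOP10* is the shortest of the genes, with 177 coding bases, where a level per length is least certain. At the other end stood *DHR2* at 2.75 ± 0.608 TPM, *UTP20* at 3.06 ± 0.0566 TPM and *UTP10* at 4.90 ± 0.297 TPM. Genes of 1 complex differed widely in level. Within the UTP-A complex *UTP5* had 62.8 ± 3.37 TPM where *UTP10* had 4.90 ± 0.297 TPM.

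Summed over the 49 genes, the level was 0.419% ± 0.021 of all TPM in Htt-25Q [V] (SD, n = 2) and 0.348% ± 0.030 in Htt-25Q [*SLX5*] (n = 3). It was 0.607% ± 0.089 in Htt-103Q [V] and 0.522% ± 0.014 in Htt-103Q [*SLX5*] (n = 3 each). By culture the sums were 0.434% and 0.404% in Htt-25Q [V], 0.333%, 0.383% and 0.329% in Htt-25Q [*SLX5*], 0.686%, 0.623% and 0.511% in Htt-103Q [V], and 0.530%, 0.506% and 0.530% in Htt-103Q [*SLX5*]. Every Htt-103Q-NLS culture was thus above every Htt-25Q-NLS culture. Culture c of Htt-103Q [V] stood nearer to the Htt-103Q [*SLX5*] cultures than to cultures a and b of its own group. The sums lean on the genes of highest TPM. *NOP10* alone gave 975 of the 4344 TPM in Htt-25Q [V] a and 1185 of the 6864 TPM in Htt-103Q [V] a.

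**Figure D2:**
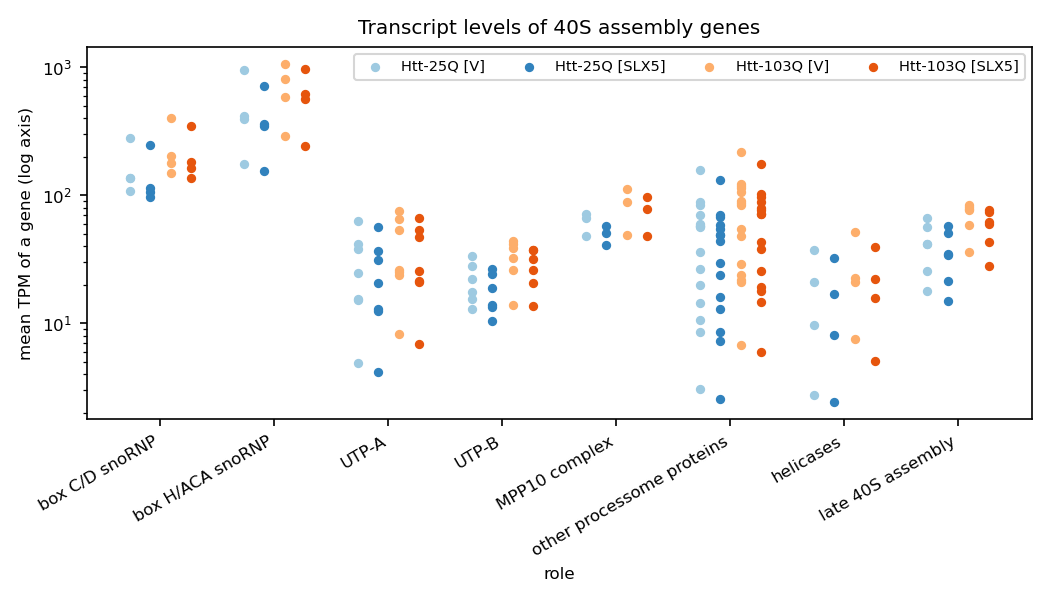
Mean TPM (log axis) of each of the 49 genes, by role and group, with 1 point per gene and group. The box H/ACA genes are highest, reaching 948 TPM in Htt-25Q [V], and the points of the Htt-103Q groups sit above those of the Htt-25Q groups in most roles.

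The first comparison asked how transcripts of Htt-103Q-NLS cells differed from those of Htt-25Q-NLS cells when both carried an empty vector. The 40S assembly genes were higher in Htt-103Q [V] cells: 37 of the 49 rose, 0 fell and 12 did not pass the test, where 27.3% of the 6321 genes tested rose and 56.8% were called in either direction. Rises ran up to a log2 fold change of 1.34 (2.54-fold) for the helicase gene *DHR2*, and the median of the 49 genes was 0.53 where the median of all genes tested was -0.02. The 3 cultures of Htt-103Q [V] lay above both cultures of Htt-25Q [V] for 34 of the 49 genes and below them for 0, against 33.9% of all genes above and 36.6% below. In a bulk culture, a change in all cells cannot be told apart from a larger change in some of them, nor fewer cells with a transcript from less of it per cell. The Htt-25Q [V] group has only 2 cultures, and the p-values rest on a spread between cultures that was estimated jointly over all groups. Without the 4 libraries of clone letter a, 23 of the 49 genes rose, against 16.4% of all genes.

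The rise was not of 1 size in the 3 cultures of Htt-103Q [V]. Relative to the mean of Htt-25Q [V], the median log2 difference over the 49 genes was 0.70 in culture a, 0.56 in culture b and 0.25 in culture c. Culture a was the highest of its group for 46 of the 49 genes and culture c the lowest for 48, whereas over all genes tested these shares were 38.9% and 39.7%. The share of rRNA counts was 1.02% in a, 0.467% in b and 0.958% in c. Without culture c, 41 of the 49 genes rose (30.1% of all genes), and without culture b of Htt-25Q [V] 26 of them did (19.4%). Why culture c differed was not tested.

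**Figure D3:**
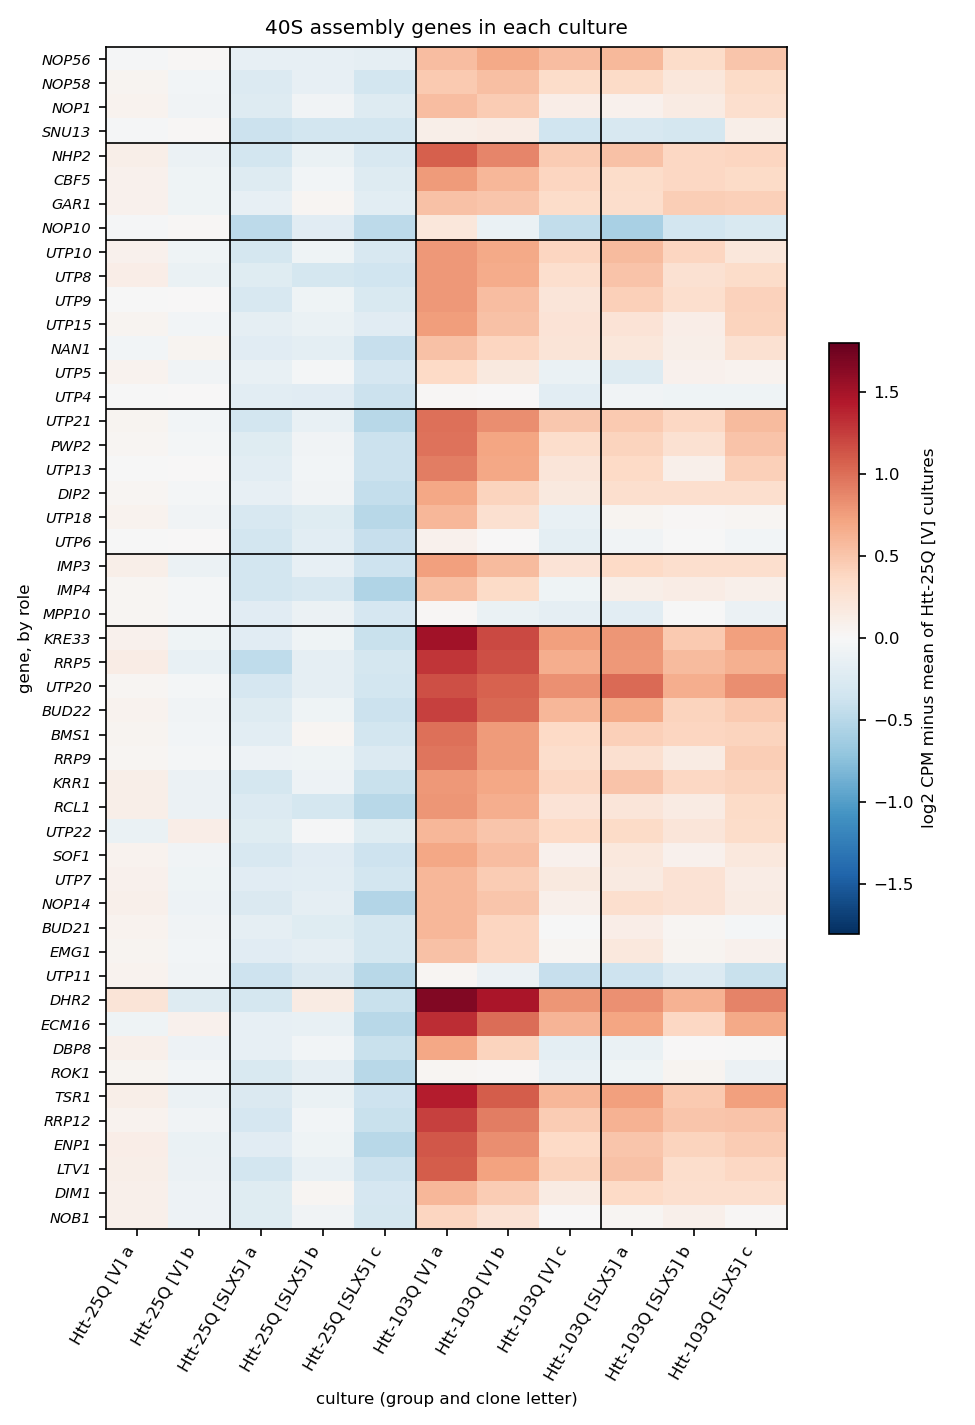
Log2 CPM of each of the 49 genes in each of the 11 cultures minus the gene's mean in Htt-25Q [V], with genes in rows by role and cultures in columns (red higher, blue lower). The Htt-103Q [V] columns darken in the order c, b, a for nearly every gene, with medians of 0.25, 0.56 and 0.70, and the Htt-25Q [*SLX5*] columns are pale blue for most genes.

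Box C/D snoRNPs guide 2′-O-methylation of rRNA, and the same core proteins sit on U3. Of the 4 core genes, *NOP56*, *NOP58* and *NOP1* rose in Htt-103Q [V] cells and *SNU13* did not pass the test. *NOP56* (YLR197W), which encodes a scaffold protein of the particle, was counted at 243 and 252 CPM in Htt-25Q [V], 223, 224 and 222 in Htt-25Q [*SLX5*], 363, 396 and 365 in Htt-103Q [V], and 372, 311 and 348 in Htt-103Q [*SLX5*]. All 6 Htt-103Q-NLS cultures lay above all 5 Htt-25Q-NLS cultures. Its log2 fold change in Htt-103Q [V] over Htt-25Q [V] was 0.60 ± 0.08 (SE, edgeR's quasi-likelihood test, adjusted p = 0.000135), or 1.51-fold. *NOP58*, its paralog, and *NOP1*, the methyltransferase, had log2 fold changes of 0.45 and 0.39. *SNU13* (YEL026W), whose protein binds the kink-turn of the snoRNA and also serves the spliceosome, was counted at 45.0 and 46.8 CPM in Htt-25Q [V], 35.2, 36.4 and 36.5 in Htt-25Q [*SLX5*], 49.2, 50.2 and 35.8 in Htt-103Q [V], and 37.7, 36.9 and 49.4 in Htt-103Q [*SLX5*]. Cultures a and b of Htt-103Q [V] lay above both Htt-25Q [V] cultures and culture c below both, for a log2 difference of -0.03 ± 0.15 (SE, edgeR, adjusted p = 0.89).

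Box H/ACA snoRNPs guide pseudouridylation. The genes *NHP2*, *CBF5* (the pseudouridine synthase) and *GAR1* rose, with log2 fold changes of 0.82, 0.59 and 0.45, and *NOP10* did not pass the test. *NHP2* (YDL208W), an RNA-binding protein of the particle, was counted at 219 and 191 CPM in Htt-25Q [V], 164, 189 and 167 in Htt-25Q [*SLX5*], 431, 377 and 280.3 in Htt-103Q [V], and 294, 264 and 269 in Htt-103Q [*SLX5*]. Every Htt-103Q-NLS culture was above every Htt-25Q-NLS culture, and the rise in Htt-103Q [V] was 1.77-fold, a log2 fold change of 0.82 ± 0.15 (SE, edgeR's quasi-likelihood test, adjusted p = 0.000839). *NOP10* (YHR072W-A), which bridges Cbf5 and Nhp2, was counted at 34.4 and 35.5 CPM in Htt-25Q [V], 25.3, 30.3 and 25.3 in Htt-25Q [*SLX5*], 40.2, 32.1 and 25.7 in Htt-103Q [V], and 23.2, 27.8 and 28.8 in Htt-103Q [*SLX5*]. The Htt-103Q [V] cultures ran from above to below the Htt-25Q [V] cultures, and the log2 difference was -0.10 ± 0.16 (SE, edgeR, adjusted p = 0.627). Its mean TPM was 1065 ± 122 in Htt-103Q [V] (SD, n = 3) and 948 ± 37.5 in Htt-25Q [V] (n = 2). The stretches printed above show both elements upstream of *NOP10* as well.

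The UTP-A complex binds the nascent precursor first. Of its 7 genes *UTP8*, *UTP9*, *UTP10*, *UTP15* and *NAN1* rose, by log2 fold changes from 0.39 to 0.63, and *UTP4* and *UTP5* did not pass the test. *UTP10* (YJL109C), a very large helical-repeat protein, was counted at 45.4 and 41.1 CPM in Htt-25Q [V], 34.5, 40.9 and 35.5 in Htt-25Q [*SLX5*], 74.3, 69.6 and 56.3 in Htt-103Q [V], and 63.9, 56.5 and 49.8 in Htt-103Q [*SLX5*]. The cultures of the 2 Htt lengths did not overlap, and the log2 fold change in Htt-103Q [V] was 0.63 ± 0.14 (SE, edgeR's quasi-likelihood test, adjusted p = 0.00222). *UTP4* (YDR324C), the homolog of human cirhin, was counted at 91.4 and 92.0 CPM in Htt-25Q [V], 80.6, 79.5 and 70.2 in Htt-25Q [*SLX5*], 93.2, 92.4 and 80.4 in Htt-103Q [V], and 87.6, 86.8 and 87.0 in Htt-103Q [*SLX5*]. Its values in Htt-103Q [V] cultures a and b were like those in Htt-25Q [V] and culture c was lower, with a log2 difference of -0.05 ± 0.08 (SE, edgeR, adjusted p = 0.626). *UTP5* (YDR398W), a WD-repeat subunit, was counted at 197 and 180.3 CPM in Htt-25Q [V], 172, 183 and 153 in Htt-25Q [*SLX5*], 243, 213 and 174 in Htt-103Q [V], and 161, 199 and 198 in Htt-103Q [*SLX5*]. Here too culture c lay below the Htt-25Q [V] cultures while a and b lay above them, and the log2 difference was 0.15 ± 0.14 (SE, edgeR, adjusted p = 0.36).

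UTP-B joins the precursor after UTP-A and contacts U3. Of its 6 genes *UTP21*, *PWP2*, *UTP13* and *DIP2*, which encode WD-repeat proteins, rose by 0.78, 0.69, 0.64 and 0.44 on the log2 scale, and *UTP18* and *UTP6* did not pass the test. *UTP21* (YLR409C) was counted at 81.9 and 75.8 CPM in Htt-25Q [V], 62.6, 71.7 and 55.7 in Htt-25Q [*SLX5*], 156, 141 and 110.3 in Htt-103Q [V], and 109, 102 and 117 in Htt-103Q [*SLX5*]. The Htt-103Q-NLS cultures were all above the Htt-25Q-NLS cultures, and the log2 fold change in Htt-103Q [V] was 0.78 ± 0.14 (SE, edgeR's quasi-likelihood test, adjusted p = 0.000746). *UTP18* (YJL069C), which recruits the exosome's helicase to the processome, was counted at 96.3 and 88.8 CPM in Htt-25Q [V], 76.1, 79.7 and 65.2 in Htt-25Q [*SLX5*], 139, 113 and 84.2 in Htt-103Q [V], and 96.0, 93.5 and 94.5 in Htt-103Q [*SLX5*]. Culture c of Htt-103Q [V] lay below both Htt-25Q [V] cultures and the other cultures above them, giving a log2 difference of 0.28 ± 0.16 (SE, edgeR, adjusted p = 0.161). Without culture c *UTP18* passed the test (log2 fold change 0.46, edgeR, adjusted p = 0.00342), and without culture a instead it was at 0.10 (edgeR, adjusted p = 0.535). *UTP6* (YDR449C), a helical-repeat protein, was counted at 25.2 and 25.6 CPM in Htt-25Q [V], 20.1, 22.3 and 19.0 in Htt-25Q [*SLX5*], 26.9, 25.5 and 22.6 in Htt-103Q [V], and 24.4, 25.4 and 24.6 in Htt-103Q [*SLX5*]. The groups with empty vector overlapped, with a log2 difference of -0.02 ± 0.10 (SE, edgeR, adjusted p = 0.851).

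Mpp10, Imp3 and Imp4 form a complex on U3, in which Imp3 and Imp4 help U3 pair with the precursor. *IMP3* rose, while *IMP4* and *MPP10* did not pass the test. *IMP3* (YHR148W) was counted at 48.1 and 41.4 CPM in Htt-25Q [V], 35.4, 40.1 and 34.4 in Htt-25Q [*SLX5*], 74.8, 66.6 and 53.2 in Htt-103Q [V], and 57.2, 55.0 and 54.8 in Htt-103Q [*SLX5*]. Each Htt-103Q-NLS culture was above each Htt-25Q-NLS culture, with a log2 fold change in Htt-103Q [V] of 0.54 ± 0.13 (SE, edgeR's quasi-likelihood test, adjusted p = 0.0044), but without culture b of Htt-25Q [V] the call was lost (0.43, edgeR, adjusted p = 0.0606). *IMP4* (YNL075W) was counted at 79.9 and 76.7 CPM in Htt-25Q [V], 62.4, 64.4 and 53.8 in Htt-25Q [*SLX5*], 114, 99.0 and 73.9 in Htt-103Q [V], and 84.1, 85.6 and 83.3 in Htt-103Q [*SLX5*]. Cultures a and b of Htt-103Q [V] were above the Htt-25Q [V] cultures and culture c below them, with a log2 difference of 0.29 ± 0.14 (SE, edgeR, adjusted p = 0.104). Without culture c the difference was 0.46 and passed the test (edgeR, adjusted p = 0.00126), and without culture a instead it was 0.15 (edgeR, adjusted p = 0.32). *MPP10* (YJR002W), the scaffold of the complex, was counted at 134 and 128 CPM in Htt-25Q [V], 114, 122 and 106 in Htt-25Q [*SLX5*], 132, 121 and 116 in Htt-103Q [V], and 115, 131 and 121 in Htt-103Q [*SLX5*]. Its groups overlapped in both comparisons of Htt length, and the log2 difference with empty vector was -0.09 ± 0.09 (SE, edgeR, adjusted p = 0.402).

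Of the largest class, 15 further processome proteins, 14 rose and *UTP11* did not pass the test. *KRE33* (YNL132W), the RNA cytidine acetyltransferase of 18S rRNA, was counted at 45.9 and 41.3 CPM in Htt-25Q [V], 37.8, 41.3 and 33.1 in Htt-25Q [*SLX5*], 125, 99.4 and 72.6 in Htt-103Q [V], and 75.5, 60.3 and 72.8 in Htt-103Q [*SLX5*]. The Htt-103Q-NLS cultures were far above the Htt-25Q-NLS cultures, with a 2.27-fold rise in Htt-103Q [V] (log2 fold change 1.18 ± 0.19 (SE, edgeR's quasi-likelihood test, adjusted p = 0.000398)). *RRP5*, a precursor-binding protein that serves both subunits, *UTP20*, a helical-repeat protein, and *BUD22* rose by log2 fold changes of 1.05, 1.02 and 0.98. The GTPase gene *BMS1* and the gene of its partner *RCL1* rose by 0.73 and 0.58, and *RRP9*, whose product is specific to U3, by 0.70. *KRR1*, a KH-domain protein gene, the WD-repeat genes *SOF1* and *UTP7*, and *UTP22*, whose protein sits in UTP-C, had log2 fold changes between 0.42 and 0.63. *NOP14*, the partner of Noc4, *EMG1*, a pseudouridine methyltransferase, and *BUD21* rose by 0.41, 0.33 and 0.35 although culture c of Htt-103Q [V] overlapped the Htt-25Q [V] range for each of these 3.

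*UTP11* (YKL099C), which encodes a processome protein, was the gene with the lowest log2 difference of the 49. It was counted at 91.0 and 82.8 CPM in Htt-25Q [V], 66.9, 72.2 and 61.5 in Htt-25Q [*SLX5*], 88.9, 80.8 and 65.0 in Htt-103Q [V], and 66.9, 72.8 and 65.5 in Htt-103Q [*SLX5*]. Culture a of Htt-103Q [V] lay between the Htt-25Q [V] cultures, and b and c lay below both. The log2 difference was -0.15 ± 0.12 (SE, edgeR, adjusted p = 0.299).

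Of the 4 RNA helicase genes, the DEAH-box genes *DHR2* and *ECM16* rose and the DEAD-box genes *DBP8* and *ROK1* did not pass the test. *DHR2* (YKL078W), a helicase of 18S rRNA processing, had the largest fold change of the 49 genes in this comparison and the lowest TPM in Htt-25Q [V]. It was counted at 11.2 and 8.02 CPM in Htt-25Q [V], 7.58, 10.5 and 7.17 in Htt-25Q [*SLX5*], 30.2, 26.2 and 16.5 in Htt-103Q [V], and 16.8, 14.5 and 17.5 in Htt-103Q [*SLX5*], and no Htt-103Q-NLS culture overlapped an Htt-25Q-NLS culture. The log2 fold change in Htt-103Q [V] was 1.34 ± 0.26 (SE, edgeR's quasi-likelihood test, adjusted p = 0.00107). *ECM16*, the helicase that takes U3 off the precursor, rose by 1.01 on the log2 scale. *DBP8* (YHR169W), the partner of Esf2, was counted at 76.0 and 66.7 CPM in Htt-25Q [V], 64.4, 68.7 and 54.1 in Htt-25Q [*SLX5*], 115, 94.3 and 62.7 in Htt-103Q [V], and 65.5, 71.9 and 71.0 in Htt-103Q [*SLX5*]. Culture c of Htt-103Q [V] lay below both Htt-25Q [V] cultures and a and b above them, for a log2 difference of 0.35 ± 0.19 (SE, edgeR, adjusted p = 0.148). Without culture c *DBP8* passed the test at 0.57 (edgeR, adjusted p = 0.00183), and without culture a instead it was at 0.15 (edgeR, adjusted p = 0.475). *ROK1* (YGL171W), which releases the snR30 snoRNA, was counted at 56.7 and 53.0 CPM in Htt-25Q [V], 45.2, 49.0 and 39.0 in Htt-25Q [*SLX5*], 56.2, 55.9 and 49.9 in Htt-103Q [V], and 51.9, 56.7 and 51.0 in Htt-103Q [*SLX5*]. Cultures a and b lay within the Htt-25Q [V] range, with a log2 difference of -0.02 ± 0.10 (SE, edgeR, adjusted p = 0.86).

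Late factors travel with the pre-40S particle to the cytoplasm. Of the 6 genes 5 rose: *TSR1*, a GTPase-like factor, *RRP12*, an export factor, *ENP1* and *LTV1*, whose proteins sit together on the pre-40S head, and *DIM1*, the dimethylase of 18S rRNA, by 1.07, 0.90, 0.80, 0.76 and 0.41 on the log2 scale. *TSR1* (YDL060W) was counted at 103.5 and 89.4 CPM in Htt-25Q [V], 80.3, 88.3 and 74.5 in Htt-25Q [*SLX5*], 257, 204 and 145 in Htt-103Q [V], and 160.3, 134 and 160.2 in Htt-103Q [*SLX5*]. The cultures of the 2 Htt lengths were wholly apart, and the rise in Htt-103Q [V] was 2.10-fold (log2 fold change 1.07 ± 0.19 (SE, edgeR's quasi-likelihood test, adjusted p = 0.00075)). *NOB1* (YOR056C), the nuclease that makes the mature end of 18S rRNA, was counted at 146 and 128 CPM in Htt-25Q [V], 117, 130.4 and 109 in Htt-25Q [*SLX5*], 179, 163 and 137 in Htt-103Q [V], and 140.3, 146 and 139 in Htt-103Q [*SLX5*]. Culture c of Htt-103Q [V] lay within the range of Htt-25Q [V], and the log2 difference of 0.22 ± 0.11 (SE, edgeR, adjusted p = 0.107) did not pass the test. Without culture c the difference was 0.34 (edgeR, adjusted p = 0.00963), and without culture a instead it was 0.15 (edgeR, adjusted p = 0.282).

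The same question could be put in cells with plasmid-borne *SLX5*, where Htt-103Q [*SLX5*] and Htt-25Q [*SLX5*] share no library with the empty-vector groups but share the fit. Here 39 of the 49 genes rose and 0 fell, where 26.9% of all genes tested rose and 26.6% fell, with a median log2 fold change of 0.51. The groups were fully apart for 44 genes, all higher in Htt-103Q [*SLX5*], against 31.5% of all genes higher and 32.8% lower. Of the 49 genes 36 rose in both comparisons, *BUD21* in the first alone, and *IMP4*, *ROK1* and *UTP6* in the second alone, and 9 (*DBP8*, *MPP10*, *NOB1*, *NOP10*, *SNU13*, *UTP11*, *UTP18*, *UTP4* and *UTP5*) passed the test in neither. A call in 1 comparison and not in the other does not show that the fold changes differed.

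*UTP20* had the largest log2 fold change with the plasmid, 1.11 ± 0.11 (SE, edgeR's quasi-likelihood test, adjusted p = 3.31e-05), followed by *RRP5* at 0.97, *DHR2* at 0.95, *TSR1* at 0.90 and *KRE33* at 0.90. With empty vector these 5 genes had log2 fold changes of 1.02, 1.05, 1.34, 1.07 and 1.18 in the same order. Among the genes not called with empty vector, *IMP4* rose by 0.49 ± 0.13 (SE, edgeR, adjusted p = 0.00746), *UTP6* by 0.28 ± 0.09 (SE, edgeR, adjusted p = 0.0206) and *ROK1* by 0.26 ± 0.09 (SE, edgeR, adjusted p = 0.0282). The last 2 calls rested on single cultures. *UTP6* was not called without culture a (0.26, edgeR, adjusted p = 0.065) or culture c of Htt-25Q [*SLX5*] (0.23, 0.0888). *ROK1* was not called without either of these (0.28, edgeR, adjusted p = 0.0577; 0.18, 0.122) or without culture b of Htt-103Q [*SLX5*] (0.23, 0.0715). *NOB1*, *UTP18* and *UTP4* lay just outside the threshold, with log2 differences of 0.25 ± 0.10 (SE, edgeR, adjusted p = 0.0512), 0.36 ± 0.14 (SE, edgeR, adjusted p = 0.0517) and 0.18 ± 0.07 (SE, edgeR, adjusted p = 0.055), and each had all 3 cultures of Htt-103Q [*SLX5*] above those of Htt-25Q [*SLX5*]. *NOP10* was closest to no difference in counts, at -0.02 ± 0.15 (SE, edgeR, adjusted p = 0.921), followed by *UTP11* at 0.03 ± 0.11 (SE, edgeR, adjusted p = 0.809). The TPM of *NOP10* was nevertheless 978 ± 29.9 in Htt-103Q [*SLX5*] and 717 ± 85.2 in Htt-25Q [*SLX5*] (SD, n = 3 each), with the cultures fully apart. Counts and TPM thus differed for this very short gene. They also parted, by less, for longer genes. *UTP4* had mean values of 91.7 CPM in Htt-25Q [V] and 88.6 CPM in Htt-103Q [V], but 24.9 and 26.0 TPM. *MPP10* had 131 and 123 CPM in these groups, but 47.6 and 48.5 TPM. The reason was not tested. For *SNU13*, *MPP10*, *UTP5* and *DBP8* the log2 differences were 0.20, 0.10, 0.13 and 0.15.

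**Figure D4:**
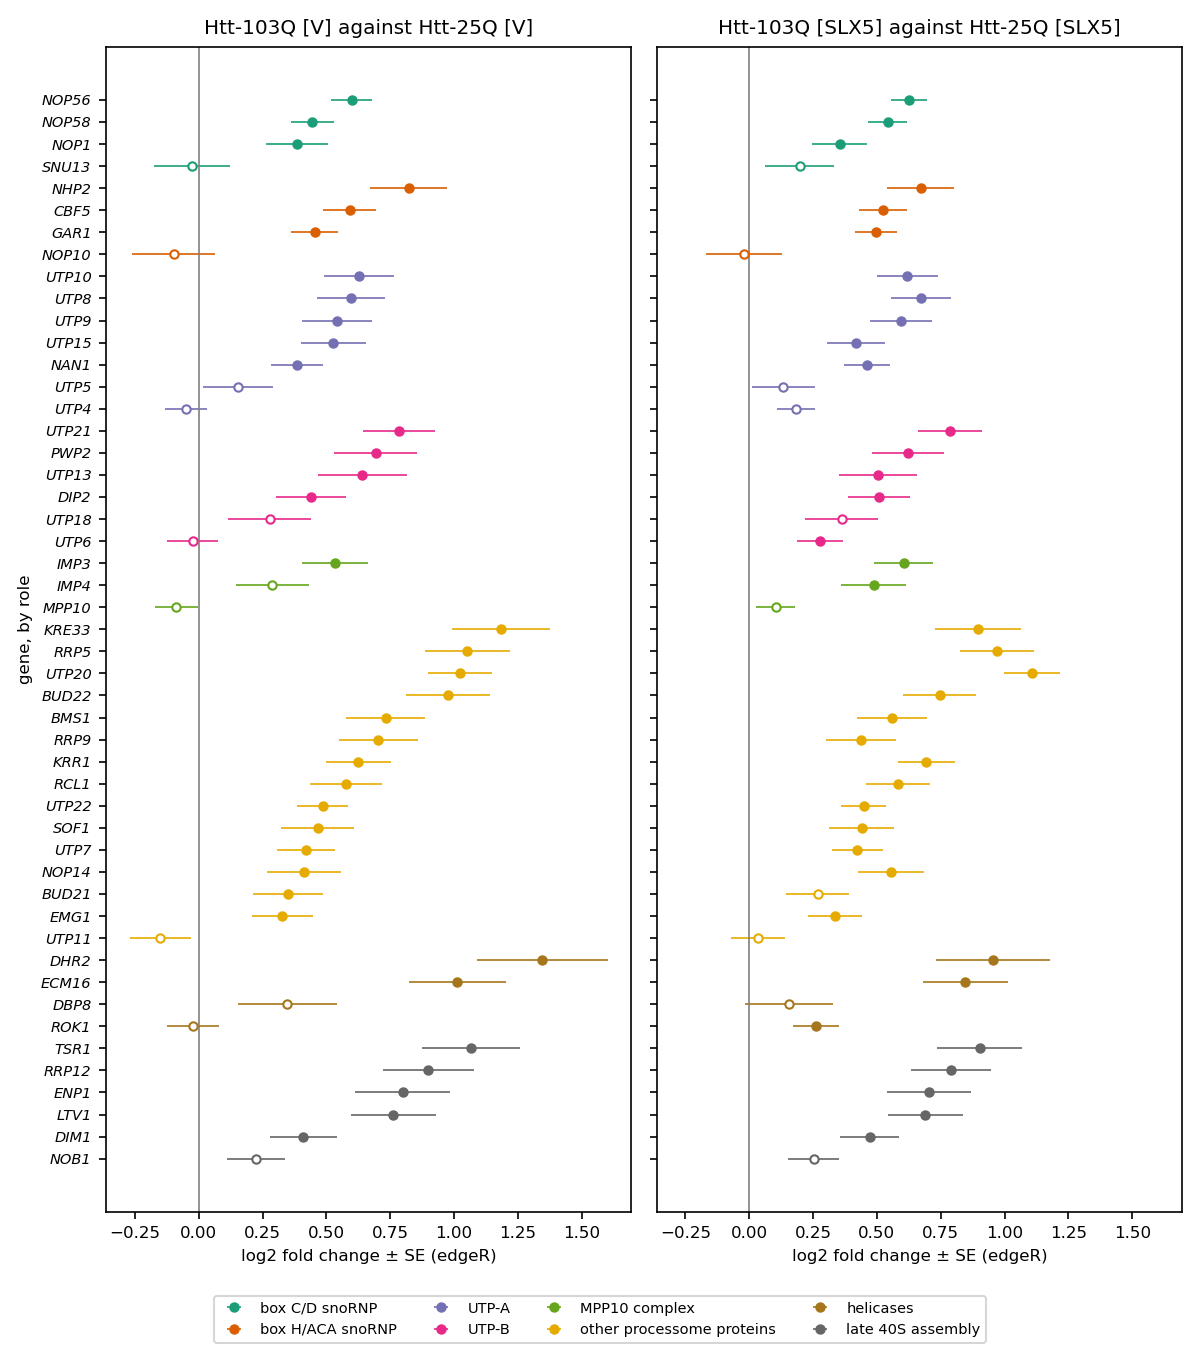
Log2 fold change ± SE (edgeR) of each of the 49 genes with empty vector (left) and with plasmid-borne *SLX5* (right) on a shared axis, grouped by role, with filled points for genes that passed the test. Filled points number 37 on the left and 39 on the right and all lie above 0, while *UTP11*, *NOP10*, *UTP4*, *MPP10* and *SNU13* lie near 0 on the left and open on both sides.

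Genes in the upper and lower part of this range differed in length and level. Across the 49 genes, Spearman's rho between the log2 fold change and coding length was 0.48 with empty vector and 0.46 with the plasmid, and between the fold change and the mean TPM in Htt-25Q [V] it was -0.43 and -0.45. Over 5770 protein-coding genes tested the values were 0.15 and 0.14 for length, and -0.23 and -0.22 for level. These values describe genes that share libraries, and the TPM in Htt-25Q [V] also enters the first fold change. The longest of the 49, *UTP20* with 7482 coding bases, was among the genes with the largest rises. The shortest, *NOP10*, was among those with the smallest differences in counts, though not in TPM with the plasmid.

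The next comparison asked what plasmid-borne *SLX5* did to these transcripts in Htt-103Q-NLS cells. All 49 log2 differences of Htt-103Q [*SLX5*] against Htt-103Q [V] were negative, from -0.58 (*DHR2*) to -0.01 (*MPP10*), with a median of -0.23. Of all genes tested 50.4% were negative. By edgeR's quasi-likelihood test 0 of the 49 genes were called, and 0.0158% of all genes. The 1 gene called was *SLX5* itself, so 0 of the 49 does not set these genes apart. At an unadjusted p under 0.05 there were 20 of the 49, against 23.2% of all genes. DESeq2 and a likelihood ratio procedure modeled on the study's steps each called 2, *KRE33* and *BUD22*, both lower. DESeq2 called 1.65% of all genes lower, and the likelihood ratio procedure 2.28% of the 4158 genes that passed its first step. The study's own list of genes modulated by *SLX5* came from its own procedure and was far longer than the 1 call made here. It also names *NHP2* and *RRP9*. *KRE33*, with the values given above, had cultures a and b of Htt-103Q [V] near or above 100 CPM and culture c within the range of Htt-103Q [*SLX5*], for a log2 difference of -0.51 ± 0.16 (SE, edgeR's quasi-likelihood test, adjusted p = 0.153). *BUD22* was counted at 141 and 129 CPM in Htt-25Q [V], 116, 128 and 104 in Htt-25Q [*SLX5*], 317, 277 and 204 in Htt-103Q [V], and 217, 178 and 188 in Htt-103Q [*SLX5*], with a log2 difference of -0.45 ± 0.14 (SE, edgeR, adjusted p = 0.151). The groups overlapped for 47 of the 49 genes, and Htt-103Q [*SLX5*] lay fully below for *CBF5* and *UTP22*, where 8.43% of all genes lay fully below and 8.38% fully above.

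This count rested on culture c of Htt-103Q [V]. Without it, 37 of the 49 genes were called lower in Htt-103Q [*SLX5*] cells, against 11.9% of all genes. *KRE33* then had a log2 fold change of -0.70 (edgeR, adjusted p = 0.00397), *DHR2* one of -0.80 (0.00977), *NHP2* one of -0.56 (0.00321), *TSR1* one of -0.61 (0.00573) and *SOF1* one of -0.49 (0.00248). With each other library left out in turn, 0 of the 49 were called. Of all genes, 1 to 3 were called when another library of a group of 3 was left out. The deposited labels and methods give no ground for setting culture c aside, and its lower values cannot be assigned to the plasmid comparison or to the culture. In the 3 cultures of Htt-103Q [*SLX5*] the median log2 difference from Htt-25Q [V] was 0.34, 0.26 and 0.33, close to the 0.25 of culture c.

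In Htt-25Q-NLS cells the plasmid went with a similar small difference. All 49 log2 differences of Htt-25Q [*SLX5*] against Htt-25Q [V] were negative, from -0.38 (*IMP4*) to -0.10 (*GAR1*), with a median of -0.24. Of all genes tested 48.6% were negative, and their median was 0.00. Other ribosome assembly genes were nearly all negative as well, as given below. The 3 cultures of Htt-25Q [*SLX5*] lay below both of Htt-25Q [V] for 37 of the 49 genes, against 18.8% of all genes below and 20.4% above. None of the 49 was called by edgeR's quasi-likelihood test (0.0475% of all genes were, 0.0316% as lower), with 15 at an unadjusted p under 0.05 (8.94% of all genes) and 0 called by DESeq2, by the likelihood ratio procedure or with any library left out. Of all genes, DESeq2 called 33 of 6321 and the likelihood ratio procedure 32 of 4158. With a library left out of a group of 3, at most 4 were called, so these zeros do not set the 49 apart. For *IMP4*, with the values given above, the log2 difference was -0.38 ± 0.14 (SE, edgeR's quasi-likelihood test, adjusted p = 0.492), and for *UTP11* it was -0.38 ± 0.12 (SE, edgeR, adjusted p = 0.447). Within the group, culture b was the highest for 44 of the 49 genes and culture c the lowest for 43, whereas over all genes tested these shares were 34.1% and 34.7%. Here too the 49 genes shifted together from culture to culture.

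The difference between the 2 plasmid effects was tested as an interaction. None of the 49 genes passed it by edgeR's quasi-likelihood test, where 0% of all genes did, with 1 of the 49 at an unadjusted p under 0.05 (5.51% of all genes). The interaction ran from -0.39 ± 0.34 (*DHR2*) to 0.30 ± 0.13 (*UTP6*) on the log2 scale, with a median of 0.00. DESeq2, the likelihood ratio procedure and the fits with a library left out also called 0 of the 49. Of all genes, DESeq2 called 0 and the likelihood ratio procedure 1 of 4158. With a library left out of a group of 3, at most 3 of all genes were called. The comparisons with *SLX5* share the [V] cultures with the first comparison of Htt length, so their values are not independent of it.

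**Figure D5:**
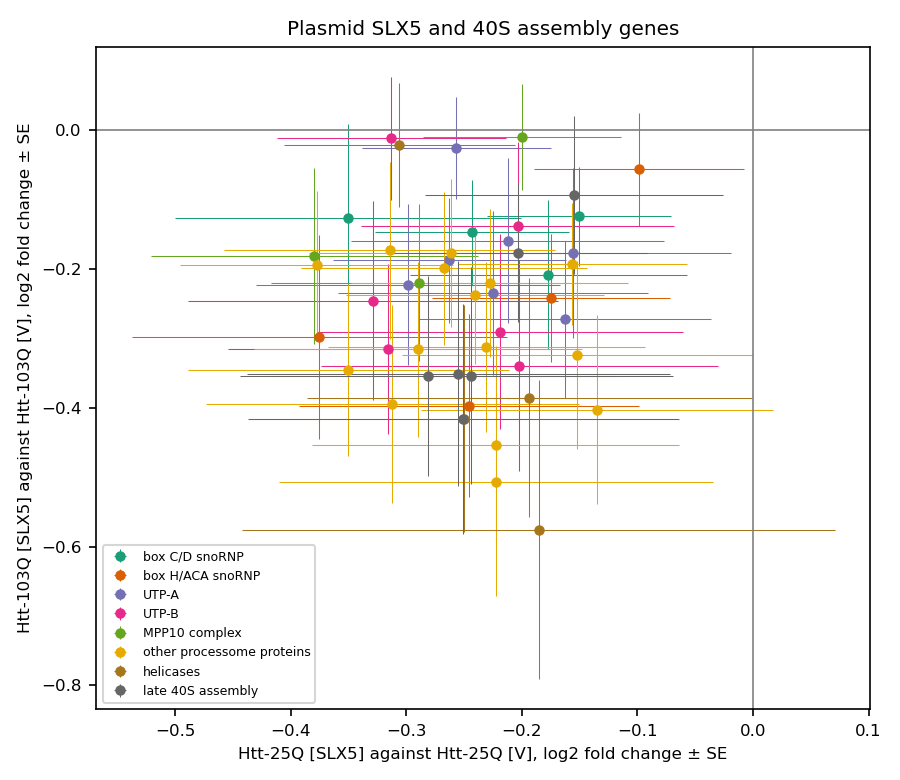
Log2 fold change ± SE (edgeR) with plasmid-borne *SLX5* in Htt-25Q-NLS cells (x axis) and in Htt-103Q-NLS cells (y axis), 1 point per gene, colored by role. All 49 points lie below 0 on both axes, between -0.38 and -0.10 on x and between -0.58 and -0.01 on y, and no gene was called in either comparison.

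Genes of the same pathway outside the 49 were read from lists of other factors, with Htt-103Q [V] against Htt-25Q [V] as the comparison. Of all genes tested in it, 27.3% rose and 29.5% fell. Of 53 other 40S and snoRNP assembly genes 28 rose and 7 fell (median log2 fold change 0.38), and of 56 genes for 60S assembly 42 rose and 0 fell (median 0.52). Of 8 RNA polymerase I genes 5 rose (median 0.52), led by *RPA190*, the gene of the largest subunit, at 1.12 ± 0.14 (SE, edgeR, adjusted p = 9.81e-05). Among the other 40S genes *RRP36* rose most, by 1.23 ± 0.24 (SE, edgeR, adjusted p = 0.00117). *NOC4*, whose protein forms a pair with Nop14, fell. It was counted at 94.8 and 93.7 CPM in Htt-25Q [V], 84.4, 89.1 and 79.0 in Htt-25Q [*SLX5*], 49.8, 48.1 and 50.7 in Htt-103Q [V], and 50.0, 64.3 and 55.0 in Htt-103Q [*SLX5*], with all Htt-103Q-NLS cultures below all Htt-25Q-NLS cultures and a log2 fold change of -0.93 ± 0.10 (SE, edgeR, adjusted p = 3.7e-05). *YTM1*, a 60S factor, rose by 1.17 ± 0.18 (SE, edgeR, adjusted p = 0.000299). Plasmid-borne *SLX5* went with negative log2 differences in these lists too. In Htt-25Q-NLS cells 56 of 56 genes for 60S assembly, 50 of 53 other 40S and snoRNP assembly genes and 7 of 8 RNA polymerase I genes were negative. In Htt-103Q-NLS cells these counts were 56, 44 and 7.

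The 56 genes of 40S ribosomal proteins, the cargo of this machinery, moved less. Of these 6 rose, 4 fell and 46 did not pass the test, against 27.3% of all genes higher and 29.5% lower. The median log2 fold change of the 56 genes was 0.09. Their range was -0.40 (*RPS26A*) to 0.42 (*RPS14B*). None of the 56 held both RRPE and PAC letters, whereas 45 of the 56 genes for 60S assembly did. With the plasmid, 8 of the 40S protein genes rose and 3 fell, against 26.9% of all genes higher and 26.6% lower. For [*SLX5*] against [V], 55 of the 56 had negative log2 differences in Htt-25Q-NLS cells and 48 in Htt-103Q-NLS cells. U3 has a pair of near-identical genes, between which reads can be divided, so their values are uncertain, and both were counted low. The gene snR17a had 8.59 and 1.95 CPM in Htt-25Q [V], 10.8, 1.16 and 1.39 in Htt-25Q [*SLX5*], 4.29, 2.20 and 3.75 in Htt-103Q [V], and 7.82, 1.98 and 3.61 in Htt-103Q [*SLX5*], with log2 differences of -0.61 ± 0.90 (SE, edgeR, adjusted p = 0.582) with empty vector and 0.00 ± 0.80 (SE, edgeR, adjusted p = 0.998) with the plasmid. The gene snR17b had mean values of 1.03 ± 0.430 CPM in Htt-25Q [V] (SD, n = 2), 0.837 ± 0.345 in Htt-25Q [*SLX5*], 2.03 ± 0.907 in Htt-103Q [V] and 1.86 ± 0.107 in Htt-103Q [*SLX5*] (n = 3 each). It did not pass the test with empty vector (edgeR, adjusted p = 0.078) and rose with the plasmid by 1.13 ± 0.40 (SE, edgeR, adjusted p = 0.0316) on the log2 scale. The highest snR17a value of each group was that of culture a, whose rRNA share was also the highest, and the sources used here differ on whether the library kit selected mRNA or took total RNA.

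Genes of known regulators of this regulon changed in both directions. *TOD6* rose, from 93.3 and 87.0 CPM in Htt-25Q [V] to 202, 162 and 123 CPM in Htt-103Q [V] (log2 fold change 0.85 ± 0.18 (SE, edgeR, adjusted p = 0.00215)), and *DOT6*, which encodes a related repressor of PAC genes, fell from 585 and 569 CPM to 333, 352 and 413 CPM (-0.66 ± 0.12 (SE, edgeR, adjusted p = 0.000905)). Neither gene's 2 groups overlapped. *STB3*, the gene of the RRPE-binding protein, fell, with a log2 fold change of -0.31 ± 0.10 (SE, edgeR, adjusted p = 0.0196), and *SCH9*, a nutrient-signaling kinase gene, rose by 0.53 ± 0.11 (SE, edgeR, adjusted p = 0.00196). *FHL1* and *IFH1*, which encode activators of ribosomal protein genes, changed by -0.54 ± 0.11 (SE, edgeR, adjusted p = 0.00186) and 0.40 ± 0.13 (SE, edgeR, adjusted p = 0.02). *SFP1*, the activator gene, did not pass the test with empty vector (0.09 ± 0.07 (SE, edgeR, adjusted p = 0.292)) and rose with the plasmid (0.22 ± 0.06 (SE, edgeR, adjusted p = 0.0103)). These are transcript levels, and the activity of the proteins was not measured.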

How the data were processed

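RNA-seq of 11 cultures was analysed. The authors demultiplexed with bcl2fastq 2.17, trimmed reads with Trimmomatic 0.36, aligned them with STAR 2.5.1 to S288C (EF4) and estimated counts with RSEM 1.2.22. The deposited table holds these expected counts (estimated counts per gene, not normalized), and the deposited TPM per culture were used for levels only. FPKM values were also deposited by the authors and were not used here. Whether counting used strand is not given in the sources used here. Samples were grouped by their labels.

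Expected counts were rounded, filtered with filterByExpr (6321 genes kept), scaled by TMM and fitted for all 11 libraries with a mean per group (R 4.3.3, edgeR 4.0.16, limma 3.58.1). Each contrast went through edgeR's quasi-likelihood test. Its p-values received the Benjamini-Hochberg adjustment over all genes tested, and calls were made under 0.05. The test was tested on simulated data. The SE is the size of the log2 fold change over the square root of F. The coefficient of variation between cultures was 11.0%, and replicate libraries differed by more than counting noise (chi-square per gene 13.0 to 87.8). Alternatives were DESeq2 1.42.0, a likelihood ratio procedure modeled on the study's steps (any difference first, then pairs), RLE size factors, no filter, the clone letter as a block, no clone-a libraries, and leaving out each library. The study describes an F-like first test and names no likelihood ratio test. Upstream sequence came from RefSeq R64, and symbols matched RefSeq for 173 of 173 listed genes. Tables and figures used Python 3.11.15, pandas 2.3.3, numpy 2.4.6 and matplotlib 3.10.9.

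The 49 genes and the lists were chosen with earlier results of these data known. Values in every culture were given for the largest and smallest fold change of each role, for genes not called in Htt-103Q [V] against Htt-25Q [V], and for genes called with *SLX5*.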

Additional observations from a re-analysis of the deposited data

How the results depend on the processing

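The counts of 40S assembly genes that rose with Htt-103Q-NLS kept their direction under every alternative listed in the methods. With empty vector, 37 rose with DESeq2, the likelihood ratio procedure, RLE size factors and no filter alike. Under these settings 1726 to 1863 of all genes rose, of 4158 to 6630 tested. Without the 4 libraries of clone letter a, 23 rose, against 16.4% of all genes. With a library left out 26 to 41 rose, where at these ends 19.4% and 30.1% of all genes did. With plasmid-borne *SLX5* the count ran from 33 to 43 with a library left out. At the lower end 1358 of 6310 genes tested rose, and at the upper end 1813 of 6297 or 1861 of 6318. For *SLX5* in Htt-103Q-NLS cells, DESeq2 called 2 genes and the likelihood ratio procedure 2, and leaving out a library gave 0 to 37. For *SLX5* in Htt-25Q-NLS cells and for the difference of the *SLX5* effects, every alternative gave 0. Of 570 single-gene alternatives 522 kept direction and call, 27 passed the test where the reported fit did not, 8 lost it and 13 turned direction, all of the last in genes that were not called. With empty vector, leaving out a library moved the log2 difference from -0.0974 to 0.130 for *SNU13*, -0.265 to 0.0649 for *NOP10*, -0.0763 to 0.0319 for *UTP4*, -0.0692 to 0.0590 for *UTP6* and -0.0708 to 0.0467 for *ROK1*. With the plasmid it ran from -0.0733 to 0.0786 for *NOP10* and -0.0232 to 0.0925 for *UTP11*, and *NOP10* stood at 0.0252 without the clone-a libraries. The causes were not tested.

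Clone letters are shared across groups. With the letter as a replicate block, 41 genes rose with empty vector, 43 with the plasmid and 0 were called for *SLX5*. Of all 6321 genes tested, 1695 rose with empty vector and 1660 with the plasmid. For *SLX5*, 3 were called in Htt-103Q-NLS cells and 4 in Htt-25Q-NLS cells. In that fit *UTP6* (0.0171) and *ROK1* (0.0337) turned to positive log2 differences with empty vector. There *NOB1* (edgeR, adjusted p = 0.0359), *UTP18* (0.0423), *IMP4* (0.0224) and *DBP8* (0.0494) also passed the test, as did *UTP18* (0.0197), *NOB1* (0.0303) and *UTP4* (0.0381) with the plasmid. Deviations of the 15 same-letter pairs correlated at -0.09 to 0.30, 10 of them over 0.1, and 6 of 11 libraries correlated best with their own letter. Since 5 pairs were not over 0.1 and the sources used here do not say what a shared letter stands for, the block was kept as an alternative. The limits are the 2 cultures of Htt-25Q [V], the Htt lengths in different strains, and culture c of Htt-103Q [V], which moved the plasmid comparison most.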
